A study of Mus musculus with 4 samples.

Results

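Inhibitory checkpoint genes encode surface receptors that restrain lymphocytes, and the ligands that engage them. The 10 genes described here were taken by name from 55401 gene models: 8 receptors (Pdcd1, Ctla4, Lag3, Tigit, Havcr2, Cd96, Cd200r1 and Btla) and 2 ligands of the receptor PD-1 (Cd274 and Pdcd1lg2). They were read in group 2 innate lymphoid cells (ILC2s) that had been purified from lung tissue of C57BL/6 mice. The cells were kept for 6 h with the alarmin IL-33 alone (2 libraries) or with IL-33 plus angiotensin II, a peptide hormone abbreviated Ang II (2 libraries). All 4 libraries thus come from IL-33-stimulated cells, and neither unstimulated cells nor cells with Ang II alone were analysed here. Each library was made from 500 cells by amplification of cDNA. The labels give neither the age or number of the mice nor whether the libraries of a group came from separate animals or cultures, so p-values measure only the spread between these libraries, which may be technical.

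ILC2s lack antigen receptors and respond to cytokines from damaged epithelium, with IL-33 among the strongest. Checkpoint receptors act on them much as on T cells: binding of a ligand brings phosphatases or adaptor proteins to the receptor's tail, which damps activating signals. PD-1 and CD200R1 are known to restrain ILC2 activity in the lung, and ILC2s can themselves carry the PD-1 ligand PD-L1, which acts on neighbouring T cells.

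The unit is FPKM, which divides fragments by transcript length and by the total mapped. Levels of different genes are set side by side on this scale, though effects of the cDNA amplification on single genes were not tested. The 4 libraries summed to between 394808 and 431014 FPKM, and the files give no counts. The 2 IL-33 libraries were nearly alike, with a median gap of 0.05 on the log2(FPKM + 1) scale over the 9215 genes that averaged 1 FPKM or more. Between the 2 Ang II libraries that median gap was 1.22. In 17.7% of those genes (1635) one Ang II library was under 1 FPKM and the other at 10 FPKM or more, as against 6 genes for the IL-33 pair. For genes between 1 and 32 in FPKM times kilobases, the IL-33 pair differed by 1.31 times the counting noise and the Ang II pair by 23.4 times that noise, at a depth estimated for the IL-33 libraries. For this reason the mean of the IL-33 libraries entered the tests as 1 sample, and they set n = 1 against n = 2. Whether they are separate samples or 1 library sequenced again cannot be settled from FPKM. Where a count asks that Ang II values lie outside both IL-33 values, the IL-33 pair may thus stand for a single sample. Of 12 genes that define ILC2s, 11 averaged 1 FPKM or more, among them Gata3, Rora and Il1rl1. For 4 of these 11 both Ang II libraries lay above both IL-33 libraries, for 0 both lay below, and 7 overlapped. Over the 9215 genes the shares were 24.4% above and 33.5% below. The most abundant of the 11, Id2 and Arg1, were among the 7 that overlapped. Id2 stood at 741 and 746 FPKM for the IL-33 pair and 760 and 489 FPKM for the Ang II pair. Arg1 stood at 533 and 542 FPKM for the IL-33 pair and 602 and 225 FPKM for the Ang II pair. The gene left out of the 11, Thy1, lay at or below 0.09 FPKM in every library.

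The stretches of DNA just before the starts of Pdcd1, Cd274 and Pdcd1lg2 are shown for this receptor and its ligands. In these libraries the 3 genes differed in where the Ang II values lay against the IL-33 values. Any link between these sequences and the levels was not tested. Each is the 250 bases upstream of the RefSeq start (GRCm38.p6, the assembly that mm10 names), read 5′ to 3′ on the gene's strand. Capitals mark matches on either strand of GGAAA, the core that the calcium-regulated factor NFAT recognises.
Pdcd1 (chr1:94052554-94052803, minus strand): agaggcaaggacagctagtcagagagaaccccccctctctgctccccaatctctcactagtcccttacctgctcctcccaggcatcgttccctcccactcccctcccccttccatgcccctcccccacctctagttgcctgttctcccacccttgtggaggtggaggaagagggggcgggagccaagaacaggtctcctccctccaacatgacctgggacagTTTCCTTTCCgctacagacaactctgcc
Cd274 (chr19:29367188-29367437, plus strand): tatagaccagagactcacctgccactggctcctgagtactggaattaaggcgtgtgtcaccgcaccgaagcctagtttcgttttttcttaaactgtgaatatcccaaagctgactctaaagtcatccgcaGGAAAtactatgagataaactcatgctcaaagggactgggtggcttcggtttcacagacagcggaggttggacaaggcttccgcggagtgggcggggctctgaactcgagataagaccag
Pdcd1lg2 (chr19:29410669-29410918, plus strand): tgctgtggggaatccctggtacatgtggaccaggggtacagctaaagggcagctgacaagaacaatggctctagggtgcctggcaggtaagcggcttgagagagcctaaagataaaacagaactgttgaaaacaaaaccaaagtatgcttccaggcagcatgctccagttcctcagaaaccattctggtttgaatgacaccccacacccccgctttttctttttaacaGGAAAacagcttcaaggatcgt
The Pdcd1 window held 2 matches, which adjoin each other and begin 28 and 23 bases before the start. Cd274 had 1 match at 120 bases and Pdcd1lg2 had 1 at 22 bases. This short core was found in 55.6% of 32851 promoter windows of the same length, so its presence is common. The longer motifs searched on both strands were TGANTCA (AP-1), TTCNNNGAA (GAS, a cytokine-response motif) and TGACGTCA (CRE), held by 6.75%, 7.02% and 1.55% of all windows. None of these 3 occurred in the windows printed here. RefSeq windows were matched for 8 of the 10 genes. Of those 8, the AP-1 motif was in 1 (Havcr2), the GAS motif in 1 (Cd96), the CRE in 0 and the NFAT core in 6. The GAS match of Cd96 overlapped no NFAT core.

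Of the 10 genes, 5 averaged 1 FPKM or more and were tested: the receptors Pdcd1, Cd200r1 and Cd96 and both ligands. The other 5, all receptors, never exceeded 0.41 FPKM in any library. None of the tested genes passed an adjusted p of 0.05 (limma on log2(FPKM + 1), two-sided, Benjamini-Hochberg over 9215 genes), nor did any gene of the table, where the share called was 0%. At an unadjusted p under 0.05, 2.79% of the table was higher and 10.8% lower with Ang II (1253 genes in all), and the checkpoint set held 0 such genes. Of the 5 tested genes, 1 (Cd274) was higher and 2 (Pdcd1 and Cd200r1) were lower across both Ang II libraries than in both IL-33 libraries. Over all tested genes 24.4% were higher and 33.5% lower by that rule. Over the 5 the median log2 difference was -1.53, and over the 10 it was -0.23, against 0.00 over all tested genes. The median over the 10 turned to 0.086 with median-centred libraries, and it was -0.013 without Ang II replicate 1 and -0.010 without Ang II replicate 2. A gene could enter the 5 through its level in a single group, so these values describe the set and support nothing further.

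**Figure D1:**
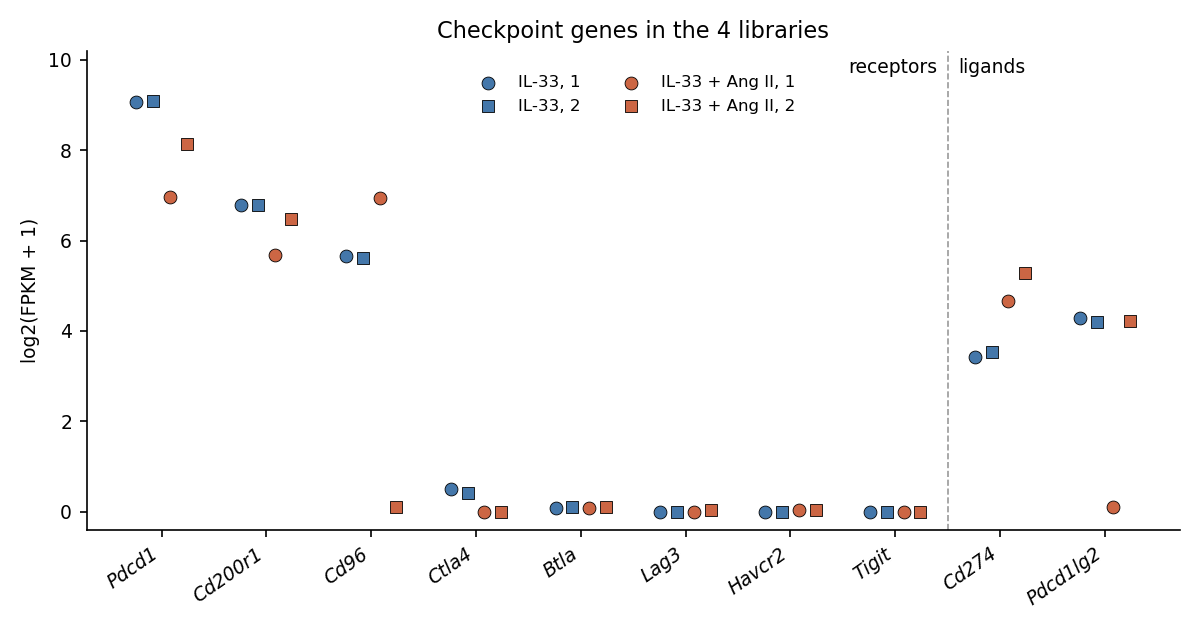
Levels of the 10 checkpoint genes as log2(FPKM + 1) on the vertical axis, 1 symbol per library, blue for IL-33 and orange for IL-33 plus Ang II, with circles for replicate 1 and squares for replicate 2. The IL-33 symbols nearly coincide for each gene. Both Ang II symbols lie below them for Pdcd1 and Cd200r1 and above them for Cd274, and Cd96 and Pdcd1lg2 each have 1 Ang II library near 0.

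Pdcd1 encodes PD-1, the receptor that recruits the phosphatase SHP2 when bound by its ligands. It was the most abundant of the 10 genes in every library, at 531 and 545 FPKM for the IL-33 pair and 123 and 281 FPKM for the Ang II pair. Both Ang II values were below both IL-33 values, by 4.38 times and 1.91 times relative to the IL-33 mean. The IL-33 libraries ranked it among their 100 most abundant gene models, at places 99 and 96, while the Ang II libraries had it at places 616 and 223. The log2 difference was -1.53 (SE 0.78, 95% interval -5.23 to 2.17), with an adjusted p of 0.760 by limma. The Ang II libraries were themselves 1.19 apart on that log2 scale, a gap reached or passed by 50.6% of tested genes. The lower level was thus seen in both Ang II libraries, as it was for 33.5% of all tested genes. The 95% interval for Pdcd1 holds both negative and positive values, so the data fix neither the direction nor the size beyond these libraries. Pdcd1 lies on chromosome 1 (94038305 to 94052553, minus strand, mm10), and no other annotated gene overlaps it.

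In these bulk libraries fewer cells with a transcript and less of it per cell cannot be told apart. T cells, which also use PD-1, CD96, CTLA-4, LAG-3, TIGIT and BTLA, were checked through 12 marker genes. Of these, 10 were tested and all 10 were lower across both Ang II libraries, beside 33.5% of all tested genes. The summed level of the 12 markers was 1289 to 1294 FPKM with IL-33 and 456 to 926 FPKM with Ang II. Cd8a and Cd8b1, which mark cytotoxic T cells, stayed at or below 0.08 FPKM in all libraries, while the T cell gene Cd4 stood at 6.32 and 6.92 FPKM for the IL-33 pair and had 0 listed for the Ang II pair. The most abundant T cell markers, Trbc2 and Trbc1, are receptor constant genes with near-identical sequence that can share reads. Trbc2 gave 710.1 and 717 FPKM for the IL-33 pair and 541 and 211 FPKM for the Ang II pair, and Trbc1 gave 314 and 306 FPKM for the IL-33 pair and 267 and 220.4 FPKM for the Ang II pair. Which cells the marker transcripts came from was not tested, nor was the part of T cell transcripts in the values of Pdcd1 and the other receptors.

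Cd274 encodes PD-L1, a ligand through which a cell can restrain PD-1-bearing neighbours. It stood at 9.75 and 10.6 FPKM for the IL-33 pair and 24.3 and 37.9 FPKM for the Ang II pair. It was the tested checkpoint gene with both Ang II values above both IL-33 values, by 2.38 times and 3.73 times relative to the IL-33 mean. Its log2 difference was 1.49 (SE 0.56, 95% interval -1.15 to 4.13), and limma gave an adjusted p of 0.601. That interval includes 0, so the data fix neither the direction nor the size beyond these libraries. The gap between the Ang II libraries, 0.62, was reached or passed by 65.8% of tested genes. An antisense gene model overlaps Cd274 but did not exceed 0.03 FPKM in any library.

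Pdcd1lg2 encodes PD-L2, the second PD-1 ligand, which is typical of dendritic cells and macrophages in type 2 inflammation. Its IL-33 values were 18.4 and 17.3 FPKM, and its Ang II values were 0.08 and 17.5 FPKM. Replicate 2 of the Ang II group thus lay inside the IL-33 range, while replicate 1 was near 0. The log2 difference of -2.08 (SE 2.70, limma adjusted p = 0.775) rests on replicate 1, and without it the difference was -0.03. A gap between Ang II libraries as wide as this one, 4.10 on the log2 scale, was found in 10.0% of tested genes. Cd274 and Pdcd1lg2 are neighbours on chromosome 19 (29367455 to 29388095 and 29410919 to 29471161, both plus strand, mm10), 22.8 kb apart. In Ang II replicate 1 the first stood above its IL-33 values and the second near 0.

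The ratio of receptor to ligand transcript was taken within each library, since FPKM is per length. Whether amplification kept the levels of different genes in proportion was not tested, and protein was not measured. Pdcd1 exceeded Cd274 by 54.5 and 51.4 times in the IL-33 libraries and by 5.07 and 7.41 times in the Ang II libraries. The groups did not overlap in this ratio, which combines a lower Pdcd1 with a higher Cd274. No test was run on it, since it was chosen after its values were seen, and no share over other gene pairs was computed. Macrophages and dendritic cells also express both ligands, and of 14 markers of these cells (H2-Aa among them, which is also counted with the binding partners) 9 were tested, with 2 higher and 6 lower across both Ang II libraries. Their summed level was 2450 to 2492 FPKM with IL-33 and 1152 to 2283 FPKM with Ang II. Over all tested genes 24.4% were higher and 33.5% lower across both Ang II libraries. The dendritic cell markers Itgax and Flt3 were listed at 0 in all 4 libraries, while the most abundant, the lysozyme gene Lyz2, stood at 1700 and 1668 FPKM for the IL-33 pair and 1016 and 683 FPKM for the Ang II pair. The other marker named by abundance, Chil3, stood at 212 and 210 FPKM for the IL-33 pair and 696 and 158 FPKM for the Ang II pair. The 2 higher ones, named after their values were seen, were Marco and Fcgr1. Marco, a macrophage scavenger receptor gene, was listed at 0 for the IL-33 pair and stood at 191 and 23.2 FPKM for the Ang II pair. Its log2 difference was 6.09 (SE 1.97). Fcgr1 stood at 0.02 and 0 FPKM for the IL-33 pair and 0.03 and 11.95 FPKM for the Ang II pair. Its Ang II replicate 1 value was thus barely above the IL-33 pair. Among the 6 lower markers Adgre1, also named after its values were seen, stood at 24.2 and 23.55 FPKM for the IL-33 pair. It stood at 0.06 and 0.04 FPKM for the Ang II pair. The part of myeloid transcripts in the ligand values was not tested.

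**Figure D2:**
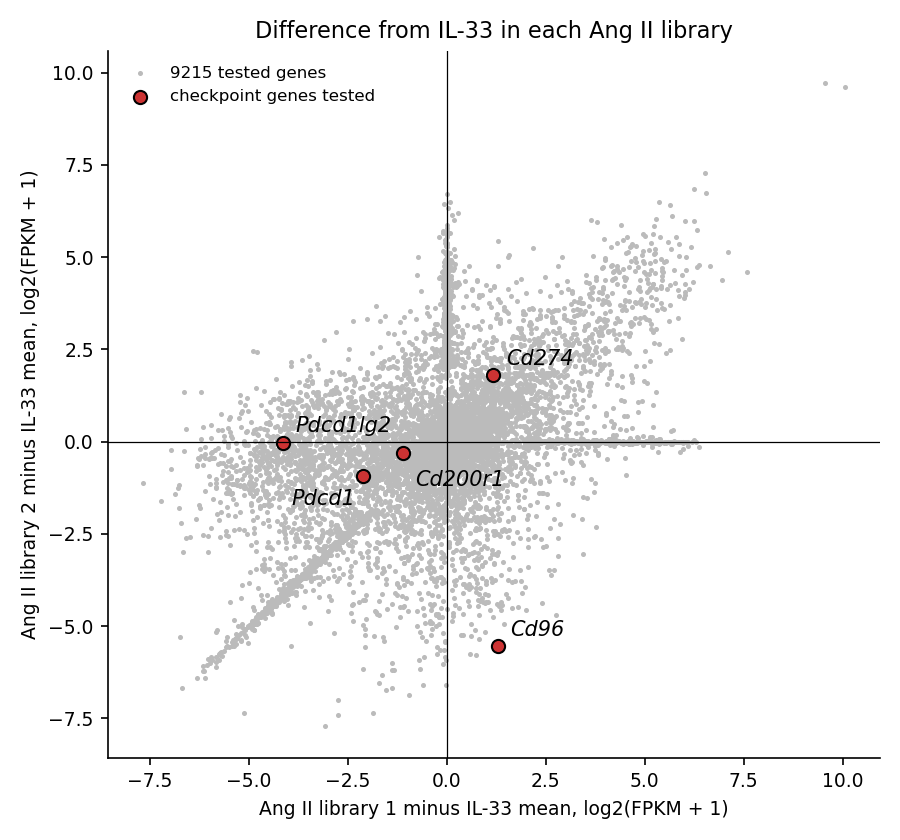
Each grey point is 1 of 9215 tested genes, placed by its log2(FPKM + 1) difference from the IL-33 mean in Ang II library 1 (horizontal axis) and in Ang II library 2 (vertical axis), with the 5 tested checkpoint genes in red. Cd274 is above 0 on both axes and Pdcd1 and Cd200r1 are below 0 on both. Pdcd1lg2 is at -4.12 and -0.03, and Cd96 is at 1.30 and -5.54.

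Cd200r1 encodes the receptor for CD200, which signals through the adaptors DOK2 and DOK1 and the Ras regulator RasGAP. The gene stood at 109 FPKM in each IL-33 library, with 49.9 and 88.4 FPKM for the Ang II pair. Both Ang II values were lower, by 2.19 times and 1.24 times. The log2 difference was -0.71 (SE 0.58, 95% interval -3.44 to 2.01), with an adjusted p of 0.775 by limma. Related genes of the same cluster on chromosome 16 could share reads with it if the counting split them. Their values, looked at after those of Cd200r1, went in different directions. Cd200r4 stood at 23.0 and 20.8 FPKM for the IL-33 pair and had 0 listed for the Ang II pair. Cd200r3 stood at 0.02 and 0 FPKM for the IL-33 pair and 10.3 and 7.80 FPKM for the Ang II pair, and Cd200r2 was listed at 0 throughout. The ligand gene Cd200 was low, at 2.39 and 2.09 FPKM for the IL-33 pair, and had 0 listed for the Ang II pair. Among the signalling genes Dok2 was well expressed, at 85.7 and 86.5 FPKM for the IL-33 pair and 143 and 41.3 FPKM for the Ang II pair. Its Ang II values lay on either side of the IL-33 values.

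Cd96 encodes an immunoglobulin family receptor that competes with the activating receptor CD226 for the ligand CD155. With IL-33 it stood at 49.6 and 47.9 FPKM. With Ang II it stood at 121 FPKM in replicate 1 and at 0.07 FPKM in replicate 2. The Ang II libraries lay on opposite sides of the IL-33 values, and their gap of 6.84 on the log2 scale was matched or exceeded by 0.0868% of tested genes. The log2 difference of -2.12 (SE 4.41, limma adjusted p = 0.847) therefore describes neither library. Without Ang II replicate 2 it was 1.30, and without replicate 1 it was -5.54. No level of Cd96 under Ang II can be given from these libraries beyond the values themselves.

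Tigit, whose product shares CD155 with CD96, was listed at 0 in all 4 libraries. The files give no counts, so no upper limit can be set on it. The ligand gene Pvr, which encodes CD155, stood at 16.4 and 15.6 FPKM for the IL-33 pair and 0.01 and 0.69 FPKM for the Ang II pair. Its log2 difference was -3.70 (SE 0.69), with an adjusted p of 0.328 by limma, so it did not pass. Cd226 stood at 5.11 and 5.44 FPKM for the IL-33 pair and 0.06 and 15.8 FPKM for the Ang II pair, overlapping between groups. The nectin genes Nectin1, Nectin2 and Nectin3, which encode further ligands of this group, stayed at or below 0.05 FPKM.

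Ctla4, whose product takes CD80 and CD86 away from the activating receptor CD28, stood at 0.41 and 0.34 FPKM for the IL-33 pair and had 0 listed for the Ang II pair. These values are below the 1 FPKM minimum, so no difference was tested. A ribosomal protein pseudogene on the same strand, Rpl18-ps1, overlaps the annotated Ctla4 locus and was more abundant (8.58 to 14.2 FPKM over the 4 libraries). Cd28 stood at 5.52 and 5.95 FPKM for the IL-33 pair and had 0 listed for the Ang II pair (unadjusted p = 0.010, adjusted p = 0.174 by limma). Cd86 was listed at 0 in all libraries and Cd80 did not exceed 0.02 FPKM. By contrast Icos, which encodes an activating relative of CD28 that ILC2s need, stood at 357 and 348 FPKM for the IL-33 pair and 264 and 383 FPKM for the Ang II pair. Cd28, Ctla4 and Icos lie next to each other on chromosome 1, and in these libraries the first pair were low and the third abundant.

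The remaining receptors were near 0 in each library. Btla, whose product binds the TNF receptor family member HVEM, stood at 0.06 and 0.07 FPKM for the IL-33 pair and 0.05 and 0.07 FPKM for the Ang II pair. Tnfrsf14, the gene of HVEM, was listed at 0 in all 4 libraries, whereas Tnfsf14, the gene of the HVEM ligand LIGHT, stood at 24.7 and 23.3 FPKM for the IL-33 pair and 0.17 and 0 FPKM for the Ang II pair. Lag3, whose product binds MHC class II, was listed at 0 in 3 libraries and at 0.03 FPKM in Ang II replicate 2. Its MHC class II ligand genes did not show such low values with IL-33. H2-Ab1 stood at 38.5 and 41.3 FPKM for the IL-33 pair and 0.40 and 0.18 FPKM for the Ang II pair (log2 difference -4.99, SE 0.64, limma adjusted p = 0.206). H2-Aa stood at 19.3 and 19.2 FPKM for the IL-33 pair and 0.46 and 0.14 FPKM for the Ang II pair. Havcr2, the gene of TIM-3, had 0 listed for the IL-33 pair and 0.03 FPKM for each Ang II library. Lgals9, which encodes the TIM-3 ligand galectin-9, was abundant, at 300.4 and 292 FPKM for the IL-33 pair and 405 and 526 FPKM for the Ang II pair. A value at or near 0 need not mean absence here, since genes that cells in general use could be as low: Polr2a, which encodes the large subunit of RNA polymerase II, gave 5.64 and 6.37 FPKM for the IL-33 pair but 0.05 FPKM in each Ang II library, and Gusb gave 0 and 0.08 FPKM for the IL-33 pair.

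**Figure D3:**
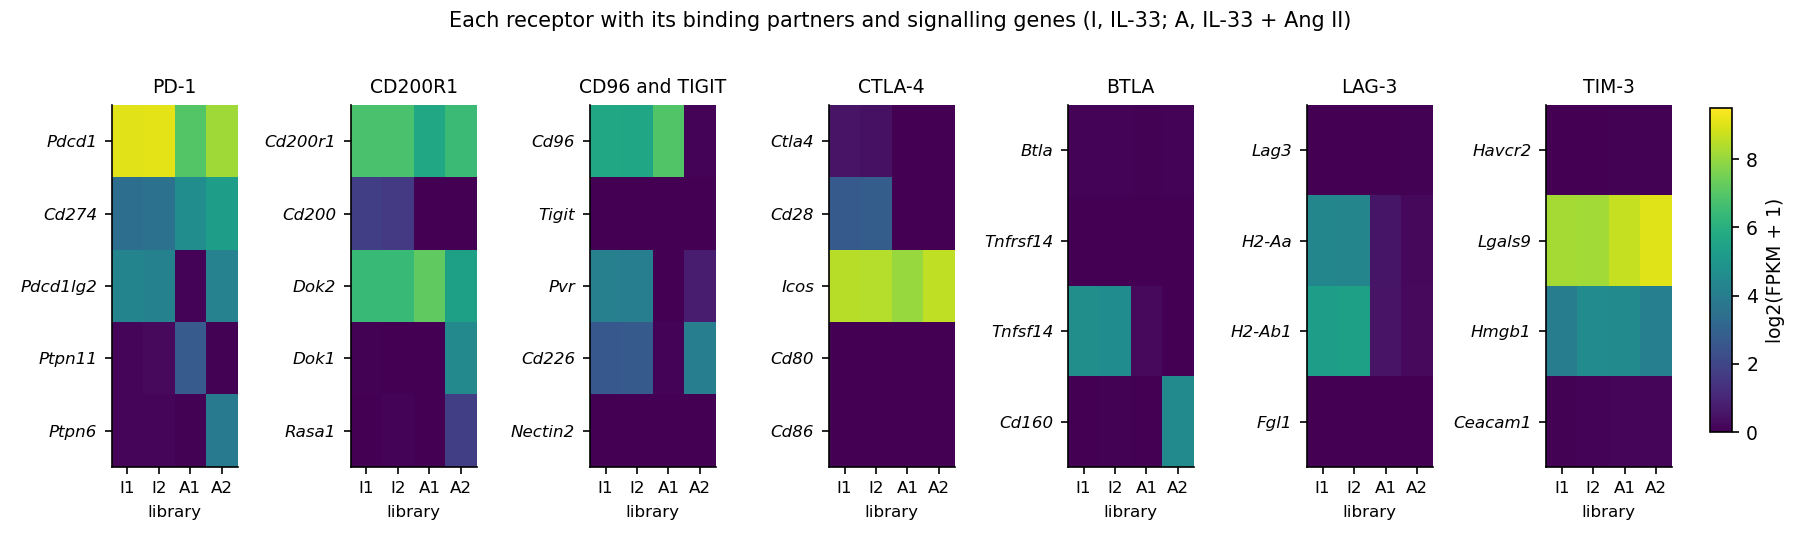
Colour gives log2(FPKM + 1) for each receptor gene, its binding partners and some signalling genes, with the IL-33 libraries as I1 and I2 and the Ang II libraries as A1 and A2. Of the 8 checkpoint receptors, Pdcd1 and Cd200r1 are bright in all 4 libraries, while Tigit, Btla, Lag3 and Havcr2 are dark in all 4. Lgals9 and Icos are bright throughout, and H2-Aa, H2-Ab1, Pvr and Cd28 are lit in the IL-33 libraries and dark or nearly so in the Ang II libraries.

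Summed over the 10 genes, the libraries held 718 and 731 FPKM with IL-33 and 318 and 425 FPKM with Ang II. These sums were 0.167% and 0.170% of all FPKM with IL-33 and 0.0747% and 0.108% with Ang II. Pdcd1 made up 73.9% and 74.6% of the sum with IL-33 and 38.6% and 66.1% with Ang II. Without Pdcd1 the sum was 188 and 186 FPKM with IL-33 and 196 and 144 FPKM with Ang II, on both sides of the IL-33 values. The groups thus differed in the total mainly through this gene. In the IL-33 libraries the order of levels was Pdcd1, Cd200r1, Cd96, Pdcd1lg2 and Cd274, the same in both, and neighbours in that order lay apart by more than the libraries did. With Ang II that order did not hold. In replicate 1 Pdcd1 (123 FPKM) and Cd96 (121 FPKM) stood side by side, ahead of Cd200r1, Cd274 and Pdcd1lg2. In replicate 2 the order was Pdcd1, Cd200r1, Cd274, Pdcd1lg2 and Cd96. Pdcd1 came first in all 4 libraries, and Cd274 lay above Pdcd1lg2 in both Ang II libraries and below it in both IL-33 libraries.

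On the map, 4 of the 10 genes (Tigit, Cd200r1, Btla and Cd96) lie within 2.47 Mb of chromosome 16, together with Cd200. In mm10 Tigit spans 43648867 to 43664146 (minus strand), Cd200r1 44765736 to 44794978 (plus strand), Btla 45224315 to 45257670 (plus strand) and Cd96 46035657 to 46120251 (minus strand). Ctla4 is on chromosome 1 (60887000 to 60915832, plus strand), Lag3 on chromosome 6 (124904361 to 124911705, minus strand) and Havcr2 on chromosome 11 (46454935 to 46481255, plus strand). The chromosome 16 neighbours did not share a level, since Cd200r1 and Cd96 were among the abundant receptors while Tigit and Btla were near 0 with IL-33.

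Genes most like the 3 most abundant members were sought by the distance over the 4 libraries on the log2(FPKM + 1) scale, among 7518 tested genes with a symbol other than a predicted-gene or clone name. Nearest to Pdcd1 was Metrnl, the gene of a secreted meteorin-like protein, at 388 and 394 FPKM for the IL-33 pair and 130.2 and 315 FPKM for the Ang II pair (distance 0.67), followed by Atox1 (distance 0.95). Nearest to Cd200r1 was Cd81, a tetraspanin gene, at 102 and 103 FPKM for the IL-33 pair and 52.7 and 94.8 FPKM for the Ang II pair (distance 0.18), followed by Rab5if (distance 0.22). Nearest to Cd96 was Wdr74, at 49.4 and 48.8 FPKM for the IL-33 pair and 121 and 0 FPKM for the Ang II pair (distance 0.10), followed by Bckdha (distance 0.48). The genes were picked for their likeness over these libraries, so it describes the values only.

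Genes that act with the checkpoint receptors were read from lists, with none passing the adjusted threshold. Their counts stand beside 24.4% of all tested genes higher and 33.5% lower across both Ang II libraries. Of 16 binding partners 7 were tested, 1 was higher and 4 lower across both Ang II libraries, and the median log2 difference was -1.0. The most abundant, Lgals3, which encodes galectin-3, a reported LAG-3 ligand, stood at 687 and 677 FPKM for the IL-33 pair and 420 and 278 FPKM for the Ang II pair. Of 16 signalling genes 10 were tested, with 1 higher and 2 lower in both and a median of 0.17. The phosphatase genes of PD-1 signalling were uneven: Ptpn11, which encodes SHP2, stood at 0.13 and 0.17 FPKM for the IL-33 pair and 5.67 and 0.03 FPKM for the Ang II pair. Ptpn6, which encodes SHP1, stood at 0.12 and 0.13 FPKM for the IL-33 pair and 0.05 and 14.1 FPKM for the Ang II pair. Each was thus at or above 1 FPKM in a single Ang II library, and not the same one. Lck and Grb2, a kinase and an adaptor of receptor signalling, were the most abundant of this list, at 124 and 125 FPKM and at 120 and 120 FPKM with IL-33. With Ang II Lck stood at 148 and 17.5 FPKM and Grb2 at 117 and 41.6 FPKM. Fyn, a related kinase gene, stood at 0.04 and 0.12 FPKM for the IL-33 pair and 43.5 and 5.71 FPKM for the Ang II pair. Csk, which encodes an inhibitor of these kinases, stood at 12.6 and 11.96 FPKM for the IL-33 pair and 0.15 and 0.86 FPKM for the Ang II pair.

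Activating counterparts, such as costimulatory receptors, were lower across both Ang II libraries for 6 of 11 tested genes and higher for 0, with a median log2 difference of -1.03 (16 genes listed), beside 33.5% lower and 24.4% higher over all tested genes. Tnfrsf18, the gene of GITR, stood at 2353 and 2342 FPKM for the IL-33 pair and 1013 and 1410 FPKM for the Ang II pair. Tnfrsf9, the gene of 4-1BB, stood at 1363 and 1367 FPKM for the IL-33 pair and 773 and 578 FPKM for the Ang II pair. These levels exceeded those of Pdcd1 in each library. Adjusted p-values by limma were 0.548 for Tnfrsf18 and 0.480 for Tnfrsf9. Tnfrsf4, the gene of OX40, stood at 50.2 and 52.2 FPKM for the IL-33 pair and had 0 listed for the Ang II pair.

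Among 29 other inhibitory receptors and ligands 15 were tested, with 2 higher and 7 lower across both Ang II libraries and a median log2 difference of -0.17. The shares over all tested genes were 24.4% higher and 33.5% lower. Klrg1, which encodes an inhibitory receptor that marks mature ILC2s, stood at 291 and 296 FPKM for the IL-33 pair and 283 and 449 FPKM for the Ang II pair. Lilrb4a, the gene of another inhibitory receptor, stood at 141 and 136 FPKM for the IL-33 pair and 146 and 104 FPKM for the Ang II pair. Both overlapped between groups, unlike Pdcd1. Klrd1, the gene of CD94, stood at 21.1 and 19.4 FPKM for the IL-33 pair and had 0 listed for the Ang II pair. Pilra stood at 10.5 and 10.9 FPKM for the IL-33 pair and 0.06 and 0.12 FPKM for the Ang II pair. Klrb1, Klrb1f, Pvrig and Vtcn1 were listed at 0 in all 4 libraries.

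Transcription factor genes linked to checkpoint receptor expression in T cells numbered 20, of which 15 were tested. In both Ang II libraries 6 were higher and 2 lower, with a median log2 difference of 0.37. Beside these counts stand 24.4% higher and 33.5% lower over all tested genes. Id2, the most abundant and also an ILC2 marker, overlapped between groups at the values given with those markers. Nr4a1, which encodes a nuclear receptor induced by activation, stood at 32.3 and 30.9 FPKM for the IL-33 pair and 519 and 321 FPKM for the Ang II pair (log2 difference 3.65, SE 0.48, limma adjusted p = 0.214). Maf, whose product drives inhibitory receptor genes in T cells together with Blimp-1, stood at 0.18 and 0.14 FPKM for the IL-33 pair and 9.81 and 9.93 FPKM for the Ang II pair. Prdm1, the gene of Blimp-1, had 0 listed for the IL-33 pair, and its Ang II values were 5.68 and 4.52 FPKM. Tox, which sustains Pdcd1 in exhausted T cells, stood at 26.9 and 28.4 FPKM for the IL-33 pair and 9.98 and 18.8 FPKM for the Ang II pair, lower in both. Irf1, which binds the Cd274 promoter under interferon, overlapped between groups at 101 and 96.5 FPKM for the IL-33 pair and 111 and 93.4 FPKM for the Ang II pair.

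**Figure D4:**
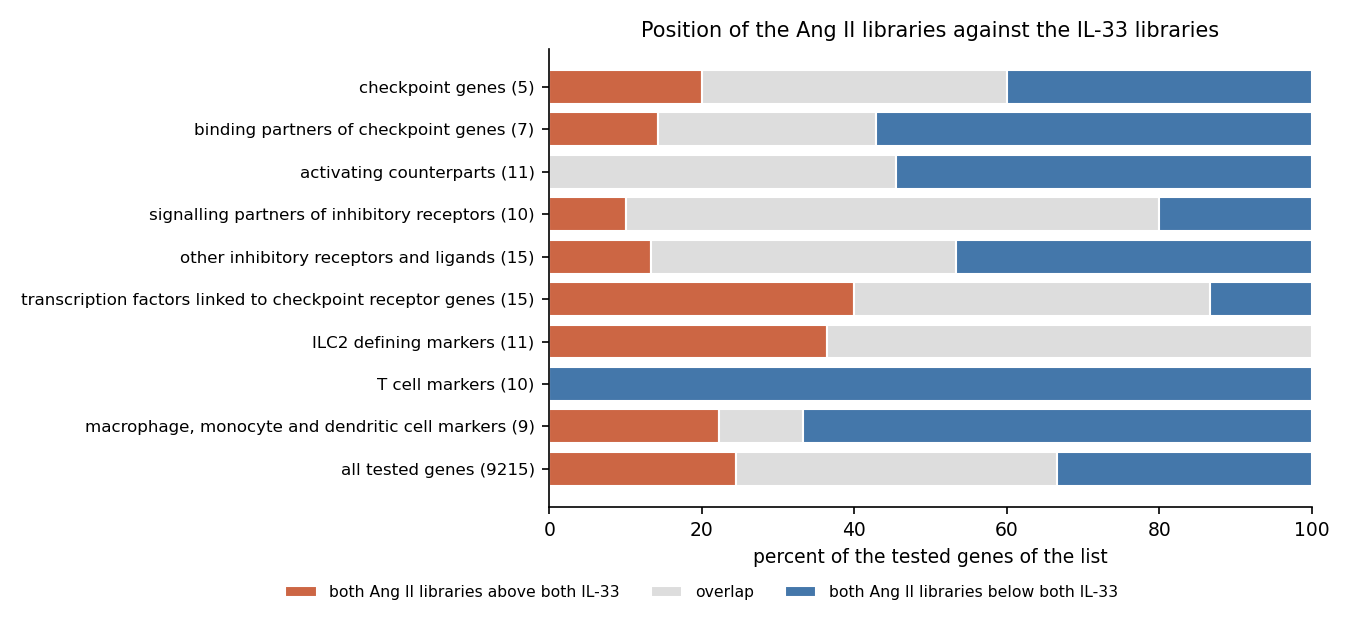
Bars give, for each gene list, the percent of its tested genes (number in brackets) whose Ang II libraries both lay above the IL-33 libraries (orange), both lay below (blue) or overlapped with them (grey). Of the checkpoint genes 1 of 5 is orange and 2 are blue, beside 24.4% and 33.5% over all tested genes, and all 10 T cell markers are blue.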

How the data were processed

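RNA-seq of 4 libraries was used, in 2 groups of 2 given by their titles. The authors deposited FPKM per gene with 2 decimals, per the file headers. The submitters' processing notes name mm10 and, without versions or roles, the tools HISAT, edgeR and StringTie. Their annotation is not given in the sources used here. The FPKM values are no counts, and the depth is unknown. Genes seen in a single IL-33 library imply a depth near 20.9 and 16.7 (in units of 1000000 fragments). That estimate assumes that such a gene holds about a single fragment, which was not tested. The counting noise given for both pairs rests on it, since the same depths were used for the Ang II pair.

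Genes averaging 1 FPKM or more over the IL-33 mean and both Ang II libraries were tested on log2(FPKM + 1) with limma 3.58.1 (R 4.3.3, lmFit and eBayes with a trend, 1 residual degree of freedom). The code was run on simulated data with a fixed spread, equal for all genes and samples. That run does not show how the test behaves at the uneven spread of these libraries. The fit takes its spread from the Ang II pair and assumes it for the IL-33 sample too. The log2(FPKM + 1) scale understates changes of low genes. Of 55401 gene models 55141 matched GENCODE M21, the source of coordinates. The members and lists were chosen with earlier results of these data known. By the rule for named genes, the text gives the 2 most abundant genes of each list described and, outside marker lists, the 2 with the largest difference between groups that do not overlap. Outside that rule, and chosen after their values were seen, are the partners of each receptor, Prdm1, Tox and Irf1. So are the ILC2 genes Gata3, Rora, Il1rl1 and Thy1 and the T cell genes Cd4, Cd8a and Cd8b1. The same holds for Marco, Fcgr1, Adgre1, Polr2a and Gusb. Some lists named in the plan are not described. Among these, NK and ILC1, B cell, epithelial and red blood cell markers had 3, 1, 3 and 5 tested genes. Of them 0, 0, 0 and 0 were higher and 1, 0, 3 and 5 lower across both Ang II libraries. Genes that cells in general use had 4 higher and 6 lower of 16 tested. The shares over all tested genes were 24.4% and 33.5%. The red blood cell markers summed to 25146 and 24943 FPKM for the IL-33 pair and 3831 and 1591 FPKM for the Ang II pair. The values of 1 gene of the transcription factor list are not reported here. Protein sequences were not analysed here.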

Additional observations from a re-analysis of the deposited data

How the results depend on the processing

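No checkpoint gene passed the adjusted threshold under any setting that gives a test, and the log2 differences of the 5 tested genes kept their direction in 74 of 75 alternative values. The exception was Cd96, at 1.30 without Ang II replicate 2 and -5.54 without replicate 1. Pdcd1lg2 kept its sign but went from -2.08 to -0.03 without Ang II replicate 1. Why Cd96 and Pdcd1lg2 turned on single libraries was not tested. Most of the settings rescale, filter or refit the same 4 libraries, so the count of kept directions says little beyond these libraries. The median over the 10 genes, 5 of which lie near 0, was -0.36 and -0.38 with pseudocounts of 0.5 and 0.1. It was -0.32 as TPM, -0.37 as TPM without haemoglobin genes and 0.086 with median-centred libraries, which moved the median of all genes to 0.32. Quantile normalization moved the median of all genes to 0.17. It was run for the 5 tested genes, but not for the median over the 10. That median over the 10 ranged from -0.25 to -0.010 when single libraries were left out. Of the tested genes, 1 to 2 were higher in both when single libraries were left out, with 2 without Ang II replicate 2, where Cd96 joined Cd274, and 2 with no minimum on FPKM, where Havcr2 did. The number lower in both was 2 to 3 when single libraries were left out, against 2 in the main analysis. It was 3 without IL-33 replicate 2, without Ang II replicate 1 or replicate 2, and with no minimum on FPKM. With an Ang II library left out, these counts set a single Ang II library against the near-alike IL-33 pair, so a gene overlaps less easily. No shares over all tested genes were computed for these settings, so the counts have no background beside them. Without haemoglobin genes the 10 made up 0.177% and 0.180% of the IL-33 libraries.

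Over all genes, limma called 0 at the adjusted threshold, 6 with median-centred libraries and 1547 when the IL-33 libraries entered as separate replicates. In that last setting Cd274 had an adjusted p of 0.0903 and Pdcd1 one of 0.184. With the replicate number as a replicate block added, 0 genes were called, and the adjusted p was 0.273 for Cd274 and 0.245 for Pdcd1. The shared numbers do not pair the libraries by the labels, and deviations of same-numbered libraries correlated at -0.02. Leaving out an Ang II library leaves no residual degree of freedom, so those values have no test. Precision is limited by the spread between the 2 Ang II libraries.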
